A study of Mus musculus with 2 samples.

Results

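Tubulin isotypes are the products of separate genes for alpha and beta tubulin, and 10 of these genes, 4 for alpha (Tuba1a, Tuba1b, Tuba1c and Tuba4a) and 6 for beta (Tubb2a, Tubb2b, Tubb3, Tubb4a, Tubb4b and Tubb5), are described here. They were chosen by gene symbol and are 10 of 43346 annotated genes in the quantifications. All 10 were matched by identifier and had counts in both libraries. The tissue was frontal cortex of C57BL/6J mice at 8 weeks of age, labelled as adult and as pooled male and female. Polyadenylated RNA longer than 200 nt and depleted of ribosomal RNA was sequenced as stranded paired reads in 2 libraries, labelled as biological replicates 1 and 2. There was 1 group, with no treatment or genotype to compare, so the report gives levels in this tissue and how far the libraries differed, and no p-value was computed. The labels tie both libraries to the same donor entry and to separate tissue samples, and do not say how many mice were pooled in each.

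Expected counts, the estimated fragments of each gene, came to 106084891 for replicate 1 and 90476207 for replicate 2, of which the 10 tubulin genes took 542335 and 461625. The libraries differed in sex-linked genes although both carry the label of pooled sexes. Xist, expressed from the inactive X chromosome, had 107 and 77696 counts, Eif2s3y on the Y chromosome had 7150 and 3, and Ddx3y, also on the Y chromosome, had 4584 and 1. By these counts replicate 1 was mainly male and replicate 2 mainly female. In every SD and ratio below, sex can thus not be told apart from other differences between the libraries. Levels are therefore given library by library. All 4 markers of excitatory cortical neurons that were looked up were present in both libraries, with Slc17a7, a vesicular glutamate transporter, at 447 and 401 TPM (a length-adjusted share of all transcripts).

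Alpha and beta tubulin pair into a dimer, and dimers add head to tail into the protofilaments that make up the microtubule wall. Microtubules carry axonal transport and give neurons, glia and cilia their shape. The isotypes of a family are nearly the same over most of their length and differ mainly in the C-terminal tail, an acidic stretch on the outer surface of the microtubule where glutamate chains, glycine chains and the terminal tyrosine are added or removed. The new proteins fold with the help of prefoldin, a cytosolic chaperonin and a set of tubulin folding cofactors.

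The ends of the coding sequences are shown because that is where the isotypes differ most and where the terminal tyrosine is encoded. For 8 of the genes, a line gives the last 60 bases of the coding sequence, stop codon included, from the GENCODE M21 transcripts (GRCm38, the same assembly as mm10), read 5′ to 3′ on the coding strand. Capitals mark glutamate codons in frame (GAA or GAG).
Tuba1c: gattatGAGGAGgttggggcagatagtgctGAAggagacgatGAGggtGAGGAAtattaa
Tuba4a: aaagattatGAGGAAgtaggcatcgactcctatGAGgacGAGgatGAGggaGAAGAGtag
Tubb2a: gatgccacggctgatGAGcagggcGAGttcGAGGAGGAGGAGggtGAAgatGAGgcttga
Tubb2b: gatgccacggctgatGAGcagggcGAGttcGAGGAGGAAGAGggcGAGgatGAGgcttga
Tubb3: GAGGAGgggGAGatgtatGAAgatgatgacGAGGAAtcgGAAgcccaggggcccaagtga
Tubb4a: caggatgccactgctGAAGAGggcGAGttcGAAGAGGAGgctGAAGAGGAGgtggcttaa
Tubb4b: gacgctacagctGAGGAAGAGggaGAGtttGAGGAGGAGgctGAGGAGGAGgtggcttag
Tubb5: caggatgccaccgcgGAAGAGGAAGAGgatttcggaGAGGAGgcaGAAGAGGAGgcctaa

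The last 20 codons held 6 glutamate codons in Tuba1c and 7 in Tuba4a. Among the beta genes they held 7 in Tubb3, 8 in Tubb2a and in Tubb2b, 9 in Tubb4a and in Tubb5, and 10 in Tubb4b. The codon before the stop was a tyrosine codon in Tuba1a (TAC), Tuba1b (TAC) and Tuba1c (TAT). In Tuba4a it was the glutamate codon GAG, so this gene encodes an alpha tubulin without the terminal tyrosine. Of the beta genes, 5 ended in an alanine codon (GCT in Tubb2a, Tubb2b, Tubb4a and Tubb4b, GCC in Tubb5) and Tubb3 ended in the lysine codon AAG.

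Whole coding sequences, 1335 to 1356 bases long, were 81.4 to 98.3% identical within a family (median 83.9% over 21 pairs) and 53.6 to 55.9% identical between an alpha and a beta gene (24 pairs). The closest pair was Tuba1a and Tuba1b, with 23 mismatches and 98.3% identity. Tuba1b and Tuba1c were 97.9% identical, Tuba1a and Tuba1c 97.1%, and Tubb2a and Tubb2b 96.5%, with 47 mismatches. Over the end shown above without the stop codon, Tubb2a and Tubb2b were at 94.7% identity, against 44.8% for Tubb2a and Tubb3. Tubb3 thus shared 83.4% of the whole coding sequence with Tubb2a but less of its end.

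**Figure D1:**
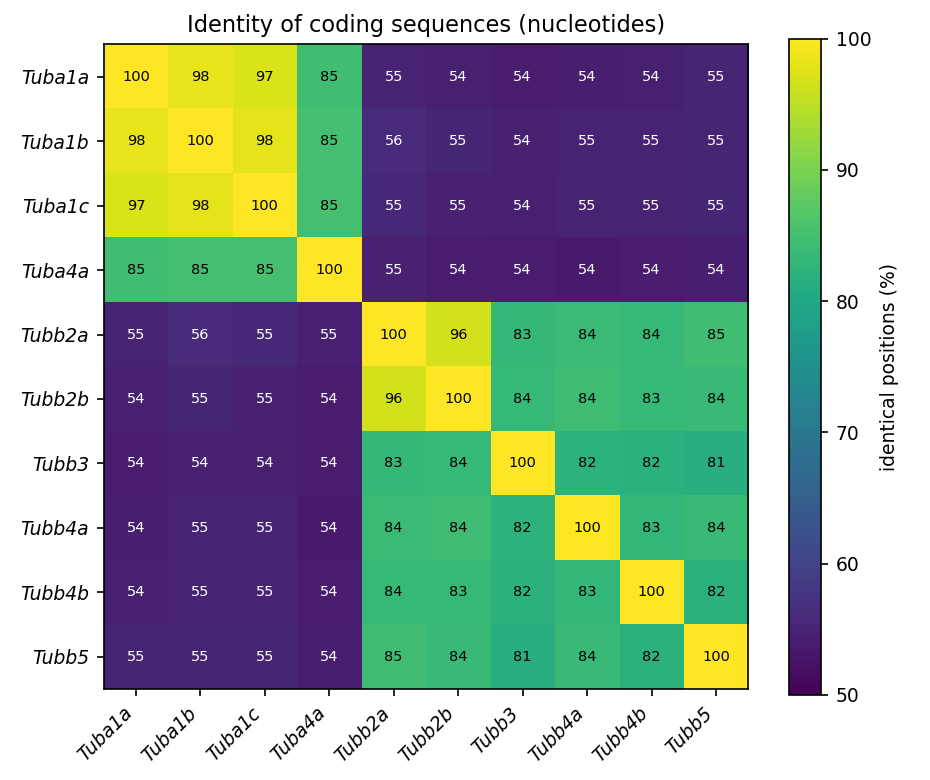
Percent of identical positions between the coding sequences of each pair of genes, with alpha genes first on both axes. The 2 blocks on the diagonal are the families, and within them Tuba1a, Tuba1b and Tuba1c, and Tubb2a with Tubb2b, stand at 96.5% or more.

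The most similar genes also lie near each other in the genome. On mm10, Tuba1b (ENSMUSG00000023004, chr15:98931425-98934565, minus strand) and Tuba1a (ENSMUSG00000072235, chr15:98949837-98953703, minus strand) are 15271 bases apart. Tuba1c (ENSMUSG00000043091, chr15:99029891-99038110, plus strand) follows 76187 bases from Tuba1a on the opposite strand. Tubb2a (chr13:34074274-34078007) and Tubb2b (chr13:34126748-34130466) are both on the minus strand with 48740 bases between them. The others stand alone: Tuba4a at chr1:75214228-75219865 (minus strand), Tubb3 at chr8:123411424-123422015 (plus strand), and Tubb4b at chr2:25222160-25224702 (minus strand). Tubb5 (chr17:35833921-35838306) and Tubb4a (chr17:57080066-57087782) are on the minus strand of the same chromosome, far apart.

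Shared sequence limits how well reads can be placed. Of all stretches as long as a read in its GENCODE M21 transcript, Tuba1b shared 69.4% exactly with transcripts of other genes, Tuba1a 65.0% and Tuba1c 53.3%. Tuba1c shared 796 such stretches with Tuba1b and 591 with Tuba1a. Tubb2a shared 36.7% and Tubb2b 27.6%, with 540 stretches in common. Tubb4b shared 28.8%, mostly with the pseudogene Tubb4b-ps1 (407 stretches), and Tuba4a, Tubb3, Tubb4a and Tubb5 shared 0%. Counting only sharing among the 10 genes, Tuba1b shared 52.0% and Tuba1a 38.2%. The deposited posterior SD of the count, which measures how firmly fragments were assigned, followed this division only in part. It was 0 in both libraries for Tuba4a, Tubb3 and Tubb5, and 0.18 and 0 for Tubb4a. Tubb4b, with 28.8% shared, had 2.47 and 1.17. For Tuba1a the SD was 79.1 and 75.8 fragments, against counts of 127044 and 106911, and for Tuba1b 80.85 and 76.0 against 75590 and 64154. For Tubb2a it was 104.8 and 101.01 fragments, against counts of 104512 and 88333, and Tubb2b had the same SDs against 37472 and 29450. Tuba1c had the largest SD relative to its count, 18.4 of 514 fragments (3.58%) in replicate 1 and 14.2 of 273 (5.17%) in replicate 2. A posterior SD above 0 was seen for 7 and 6 of the 10 genes, against 10.6 and 10.1% of protein-coding genes that averaged at least 1 TPM. The split of reads among Tuba1a, Tuba1b and Tuba1c, and between Tubb2a and Tubb2b, is therefore given as uncertain.

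Tuba1a was the most abundant of the alpha genes. This isotype is typical of neurons that have left the cell cycle, and human TUBA1A is known as a gene of cortical malformation. It had 1068 and 999 TPM (1033 ± 48.9, SD, n = 2, as for all means below) and ranked 25 among nuclear protein-coding genes. Tuba1b, which most cell types express, had 610 and 565 TPM (587 ± 31.6, rank 66). Tuba1a exceeded Tuba1b by 0.82 ± 0.01 on the log2 scale, or 1.76-fold, in nearly the same proportion in each library.

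Tuba4a, the alpha isotype without an encoded tyrosine, had 185 and 229 TPM (207 ± 31.0, rank 360). It was lower in replicate 1, and Tuba1a exceeded it by 2.33 ± 0.29 (log2). Tuba1c was at a different order of level, with 3.51 and 2.07 TPM (2.79 ± 1.02) and rank 11596. Tuba1b, its closest neighbour in coding sequence, exceeded it by 7.77 ± 0.46 (log2), or 218-fold.

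Among the beta genes Tubb2a led, with 918 and 861 TPM (889 ± 40.0, rank 36). Tubb2b, its close copy and in humans a gene of cortical malformation, had 264 and 230 TPM (247 ± 24.0, rank 284). The difference between these copies was 1.85 ± 0.08 (log2), or 3.6-fold, and had the same direction in both libraries.

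Tubb3 is the beta isotype used as a marker of neurons. It had 345 and 337 TPM (341 ± 5.85, rank 179), and Tubb2a exceeded it by 1.38 ± 0.04 (log2). In deposited TPM, Tubb3 had the smallest SD relative to its mean of the 10 genes. This depends on the scale. With TPM rescaled to nuclear protein-coding genes, Tubb3 (692 ± 11.5) varied more in proportion than Tuba1a (2094 ± 28.5) and Tubb2a (1803 ± 20.4). Tubb4a, a brain isotype found in neurons and in oligodendrocytes and altered in a human disorder of myelin, had 266 and 301 TPM (283 ± 25.1, rank 241). Tubb4b, which is widely expressed and prominent in ciliated cells, had 283 and 246 TPM (265 ± 26.5, rank 260). These libraries do not put Tubb4a and Tubb4b in a fixed order: Tubb4a was lower in replicate 1 and higher in replicate 2, and their log2 ratio was 0.10 ± 0.27. Tubb5, named TUBB in humans and expressed in most cell types, had 269 and 220 TPM (245 ± 34.4, rank 290).

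**Figure D2:**
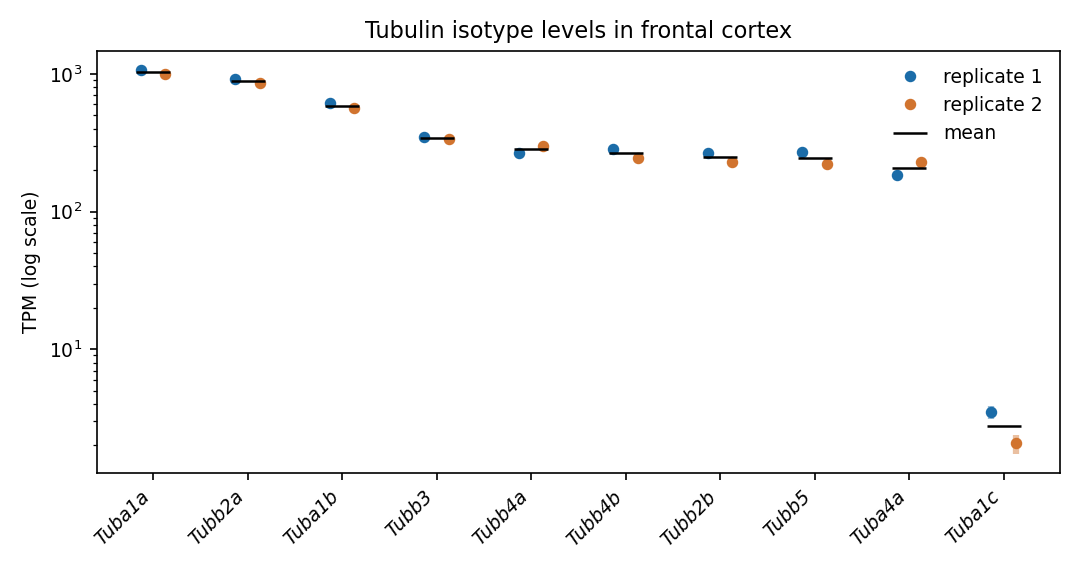
TPM (log scale) of each gene in each library, ordered by the mean (black line), with the deposited interval of each library as a shaded bar, mostly hidden by the points. Tuba1a, Tubb2a and Tuba1b are the 3 highest, 6 genes lie between 185 and 345 TPM, and Tuba1c is at 3.51 and 2.07 TPM.

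By mean TPM the order was Tuba1a, Tubb2a, Tuba1b, Tubb3, Tubb4a, Tubb4b, Tubb2b, Tubb5, Tuba4a and Tuba1c. Neighbours were called apart where their log2 ratio had the same sign in both libraries, its mean exceeded its SD and the deposited TPM intervals did not overlap in either library. Of the 9 neighbouring pairs, 6 were apart. Tubb4a and Tubb4b were not, nor were Tubb2b and Tubb5 (log2 ratio 0.02 ± 0.06), nor Tubb5 and Tuba4a (0.24 ± 0.42). Tubb4b exceeded Tubb2b by 0.10 ± 0.004 (log2), which met the rule, and Tubb3 exceeded Tubb4a by 0.27 ± 0.15. Tuba1a exceeded Tubb2a, the leading beta gene, by 0.22 ± 0.003. In counts not divided by transcript length the Tubb3 over Tubb4a ratio was -0.014 and the Tubb4b over Tubb2b ratio -0.22 (log2). The Tubb2b over Tubb5 ratio was -0.45 and the Tubb5 over Tuba4a ratio 1.12 on that scale, and Tubb5 came next after Tuba1b. Some deposited TPM values lie outside their own interval: the upper bounds for Tuba1a were 1066 and 997 TPM and those for Tubb2a 917 and 860 TPM.

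The 10 genes summed to 4211 and 3991 TPM (4101 ± 156), which was 0.834 and 0.829% of the TPM of nuclear protein-coding genes. The alpha genes took 1866 and 1795 TPM, and the beta genes 2345 and 2196 TPM. Alpha over beta was 0.796 and 0.817 (0.807 ± 0.0153). This is a ratio of transcripts, and the proteins were not measured.

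Within the alpha family, Tuba1a took 57.2 and 55.7% of the TPM, Tuba1b 32.7 and 31.5%, Tuba4a 9.92 and 12.8%, and Tuba1c 0.188 and 0.115%. In the beta family, Tubb2a took 39.1 and 39.2% and Tubb3 14.7 and 15.3%. The remaining beta genes each took 10.04 to 13.7%. Alpha transcripts thus came largely from the Tuba1 genes, whereas beta transcripts were spread over 6 genes, none of which took under 10.04% in either library. Tuba4a and Tubb4a had the larger share in replicate 2, and Tubb2b, Tubb4b and Tubb5 in replicate 1.

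**Figure D3:**
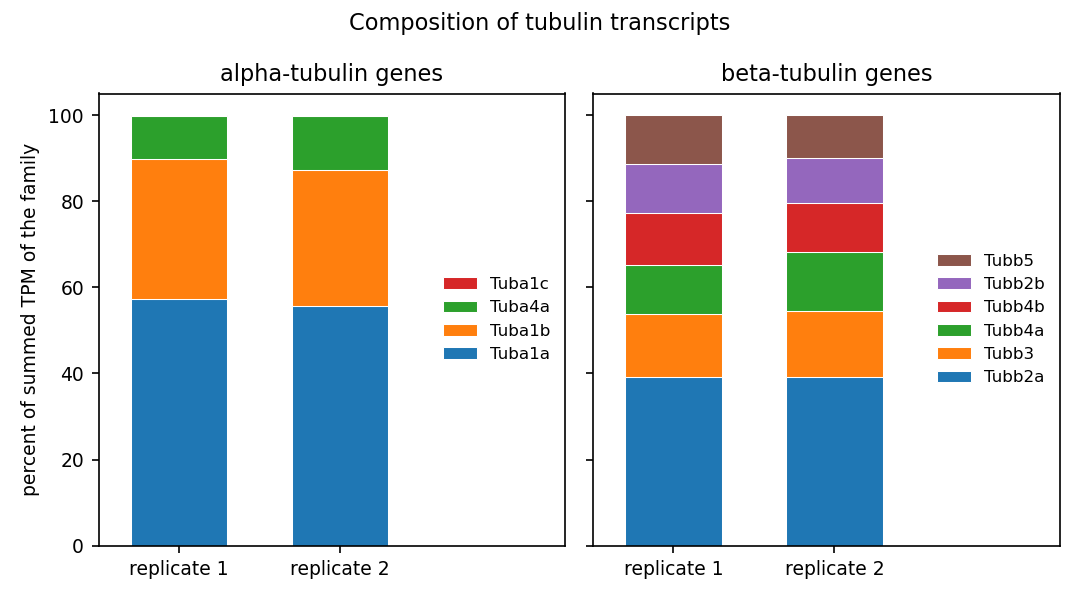
Percent of the summed TPM of the alpha genes (left) and of the beta genes (right) taken by each gene in each library. Tuba1a takes 57.2 and 55.7% of alpha, Tubb2a 39.1 and 39.2% of beta, and the Tuba1c share (0.188 and 0.115%) is too thin to see.

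Genes whose coding sequence ends in a tyrosine codon supplied 90.1 and 87.2% of alpha TPM (88.7 ± 2.01). Tuba4a, without that codon, supplied the other 9.92 and 12.8%. These are shares of gene TPM that count every transcript model of a gene, also those without a complete coding end. For Tuba4a the codon was read from the complete coding model, which took 5.72 and 5.25% of the TPM of that gene. Removal or addition of the tyrosine by enzymes was not measured.

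Most of the genes had 1 main transcript model. Of 24 transcripts quantified for the 10 genes, 5 genes had 1 each (Tuba1c, Tubb2a, Tubb2b, Tubb3 and Tubb4a). For these 5 the annotation alone set the share of that transcript. In 9 of the 10 genes the most used transcript took 90% or more of the TPM. It took 99.8 and 99.6% in Tuba1a, 97.0 and 99.0% in Tuba1b, 98.6 and 98.5% in Tubb4b, and 93.8 and 97.3% in Tubb5.

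Tuba4a was the exception. Transcript Tuba4a-206 (1205 nt, annotated as incomplete at its start) took 40.5 and 39.7% of its TPM, and Tuba4a-201 (2083 nt, also incomplete at its start) took 38.8 and 32.6%. A model annotated as a retained intron, Tuba4a-205 (815 nt), took 14.5 and 6.43%, and the complete coding model, Tuba4a-202 (2840 nt), took 5.72 and 5.25%. Tuba4a-207, a model of 346 nt annotated as incomplete at its end, took 0 and 15.5%. By counts, Tuba4a-201 took 53.0 and 50.7% and Tuba4a-206 took 29.4 and 32.7%. Tuba4a-207 rested on 0 and 345 fragments, and its effective length, the part of a transcript where a fragment can start, was 139 and 130 nt, so that these 345 fragments gave 35.4 TPM. Without it Tuba4a had 185 and 194 TPM (189 ± 5.99), and Tubb5 exceeded Tuba4a by 0.54 and 0.19 (log2), the same sign in both libraries. Most of the net TPM difference of Tuba4a between the libraries thus lay in this model, which was singled out after its values were seen. Tuba4a-206 was also lower in replicate 1 and Tuba4a-205 was higher, and these differences partly offset each other in the net value. In counts scaled to the library size, Tuba4a stayed lower in replicate 1 by nearly as much without Tuba4a-207, as given below.

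**Figure D4:**
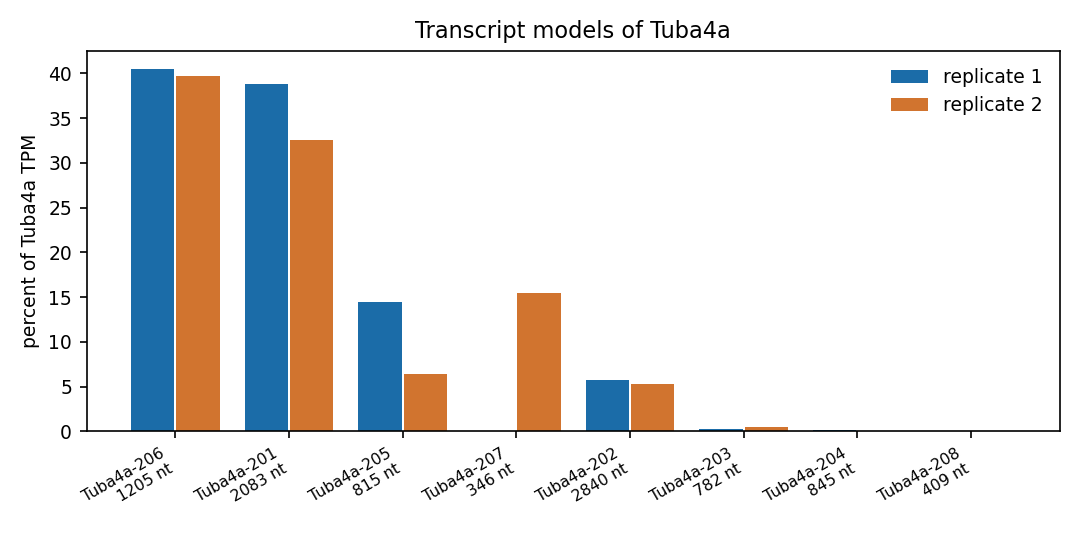
Percent of Tuba4a TPM taken by each of its 8 transcript models in each library, with the model's length in nt. Tuba4a-206 and Tuba4a-201 take the most, and Tuba4a-207 takes 0 and 15.5%.

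Replicate 1 was set against replicate 2 by the log2 ratio of CPM (counts scaled to the library size) after TMM, a trimmed mean of log ratios, with a prior count of 2. A gene was called where its ratio reached 0.32 in either direction on the log2 scale, which is a fold between single libraries and not a test. Of the 10 tubulin genes, 1 was called higher in replicate 1, against 4.03% of 13234 protein-coding genes that averaged at least 1 TPM. None of the 10 was called lower in replicate 1, against 4.81% of those genes, and 8.84% were called in either direction. The median ratio of the 10 genes was -0.03, beside -0.00 over all protein-coding genes. Over all of these, the 5th percentile was -0.32 and the 95th 0.29. Counting intervals below are exact conditional binomial intervals at 95% and cover counting error only.

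Tuba1c was the gene called, with 514 and 273 counts and a log2 ratio of 0.63 (0.42 to 0.85), or 1.55-fold. It is also the gene with the fewest counts and the least certain assignment of reads. Tubb4a lay just inside the threshold, with 44421 and 45442 counts and a ratio of -0.31 (-0.33 to -0.29). Tuba4a had 21043 and 20627 counts and a ratio of -0.25 (-0.28 to -0.22), and -0.23 without Tuba4a-207. These are lower in replicate 1 although their counts were close, since replicate 1 was the deeper library.

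Tubb5 had a ratio of 0.12 (0.10 to 0.14), Tubb4b 0.08 (0.05 to 0.10) and Tubb2b 0.07 (0.05 to 0.09), each higher in replicate 1. Tubb3 had -0.10 (-0.12 to -0.08). The ratios were -0.03 for Tuba1a and -0.04 for Tubb2a and for Tuba1b. The ratios of Tuba1a, Tuba1b, Tubb2a and Tubb3 change sign under at least 1 other scaling, while those of the other 6 genes keep theirs under all 6 settings tried. The alternative size factors move all genes alike, by -0.002 to 0.05 against TMM (log2). Shifts of that size could not turn the sign of these 6. The median of all genes is itself 0.12 on the TPM scale.

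**Figure D5:**
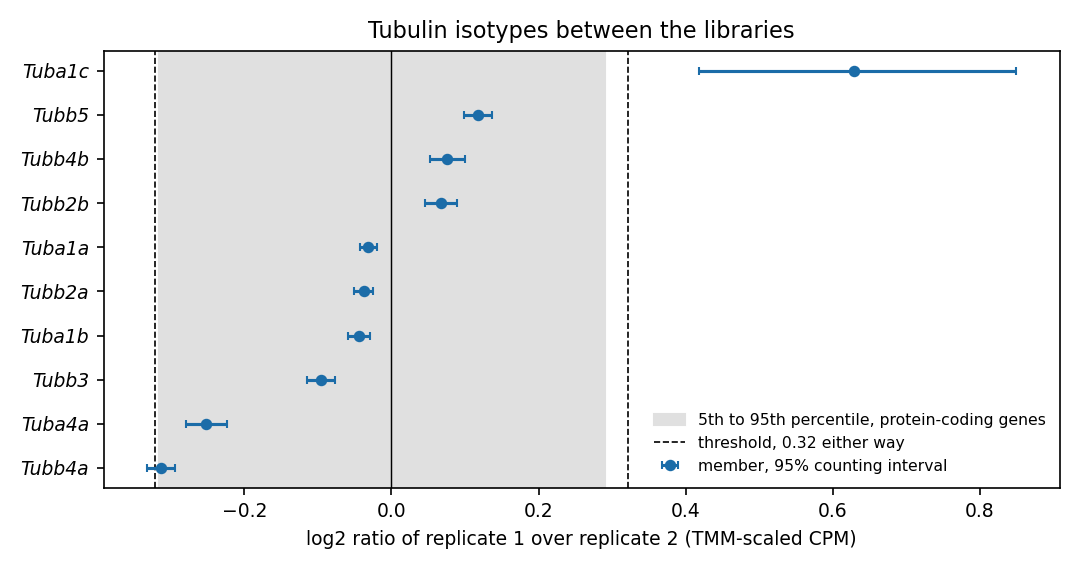
Log2 ratio of replicate 1 over replicate 2 for each gene with its counting interval, the 5th to 95th percentile of protein-coding genes (grey) and the thresholds of 0.32 in either direction (dashed). Tuba1c at 0.63 lies outside, and Tubb4a at -0.31 lies at the lower threshold.

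Markers of glia also differed between the libraries. Of protein-coding genes that averaged at least 1 TPM, 4.81% passed the threshold lower in replicate 1 and 4.03% higher. All 5 oligodendrocyte markers were lower in replicate 1, with 1802 and 2221 TPM in sum, and 4 of the 5 passed the threshold. These were Mbp, a major myelin protein (-0.47), Mag (-0.46), Mobp (-0.45) and Mog (-0.41, all log2 ratios). Tubb4a and Tuba4a were lower in the same library, and the part of oligodendrocytes in this was not tested. In bulk tissue, fewer cells of a type and less RNA per cell cannot be told apart. The 4 microglial markers were higher in replicate 1 (165 and 116 TPM in sum, 3 past the threshold), as were the 3 markers of mural cells of vessels (171 and 135 TPM, 2 past the threshold). Their part in the ratio of Tuba1c was not tested. Markers of immature neurons summed to 60.4 and 55.9 TPM, with none past the threshold, and those of excitatory neurons to 551 and 509 TPM, with none past it. Markers of GABAergic neurons summed to 598 and 760 TPM (none past it). These sums differed mainly through a single gene. The ratios of this list, which rest on scaled counts and not on TPM, ran from -0.21 to 0.01 (median -0.17). Astrocyte markers summed to 418 and 398 TPM. Aqp4 was past the threshold at 0.37, but it was the only 1 of the 4 astrocyte markers with a ratio above 0, and their median was -0.07. The 3 precursor markers of the oligodendrocyte lineage summed to 28.3 and 21.8 TPM (none past it), and endothelial markers to 161 and 188 TPM. The endothelial sums differed through Ly6c1 alone (90.5 and 124 TPM, ratio -0.42). The other endothelial markers had the higher TPM in replicate 1, and the ratios of this list had a median of -0.03 and a maximum of 0.12.

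Some markers name cells from outside the cortical sheet. The 3 genes listed for the olfactory bulb summed to 233 and 242 TPM, with Doc2g at 149 and 161 TPM and none past the threshold. Blood genes summed to 405 and 510 TPM. All 3 (Hba-a2, Hbb-bs and Alas2) were lower in replicate 1 past the threshold, beside 4.81% of all protein-coding genes. Ciliated ependyma summed to 6.57 and 10.7 TPM, with Rarres2 (-0.97) and Foxj1 (-0.36) lower in replicate 1, and choroid plexus to 1.97 and 2.14 TPM, with Ttr at 0.93 and 0.85 TPM. The proliferation genes Top2a and Mki67 were at 1.06 and 1.53 TPM and at 0.28 and 0.30 TPM.

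The remaining tubulin genes gave 61.4 and 65.2 TPM in sum, 1.44 and 1.61% of all tubulin TPM. Of 10 such genes, 6 had a mean of 1 TPM or more. Gamma tubulin nucleates microtubules, and of its genes Tubg2, the form enriched in brain, had 29.2 and 28.5 TPM. Tubg1, the widely expressed form, had 11.1 and 12.1 TPM, and Tubg2 exceeded it by 1.31 ± 0.11 (log2). Tuba8, an alpha gene whose coding sequence ends in the phenylalanine codon TTT, had 8.14 and 10.5 TPM and a replicate ratio of -0.50. Tubb6, a beta gene, had 8.06 and 9.91 TPM and a replicate ratio of -0.43. Both ratios were past the threshold, lower in replicate 1, as were 4.81% of all protein-coding genes. Tubd1 (delta tubulin, a centriole protein) had 3.47 and 2.75 TPM and Tube1 (epsilon tubulin, likewise) averaged 1.32 ± 0.0990 TPM. Tubb1, the beta tubulin of platelets, had 1 and 11 counts, Tuba3a 2 and 0, Tuba3b 1 and 0, and Tubal3 1 and 0.

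The genes listed as folding cofactors and prefoldin subunits were present in both libraries. The 7 genes of the folding cofactor list had 1 TPM or more each, with a median of 61.4 TPM. By mean TPM, Tbce, a cofactor that acts on alpha tubulin, was highest at 110 and 99.1 TPM, followed by Tbca, which captures beta tubulin, at 111 and 86.1 TPM, and Tbcc was lowest at 9.46 and 8.84 TPM. Prefoldin subunits, which hand new tubulin to the chaperonin, had a median of 47.7 TPM over 6 genes, with Pfdn5 at 266 and 240 TPM, Pfdn2 at 78.4 and 67.5 TPM and Pfdn4 lowest at 17.0 and 15.1 TPM. None of the 13 genes was past the threshold, beside 8.84% of all protein-coding genes, and lists this short show no difference from that share.

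Tubulin mRNA is degraded when free tubulin is in excess, through Ttc5, which recognises the new protein at the ribosome, and through Scaper and Cnot11, which link it to mRNA decay. All 3 were present, with Ttc5 at 28.4 and 24.5 TPM, Cnot11 at 10.04 and 9.79 TPM and Scaper at 6.73 and 5.48 TPM. None was past the threshold, beside 8.84% of all protein-coding genes.

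Several gene lists cover enzymes that act on the tail. In the tyrosination list, Ttl, the ligase that restores the tyrosine, had 15.6 and 15.2 TPM, and Svbp, the partner that the vasohibins need to remove it, had 17.0 and 17.1 TPM. Vash2 was lowest of the 4 genes, at 3.63 and 3.78 TPM. Of 13 genes for adding glutamate or glycine chains, 8 reached 1 TPM. Ttll7, an enzyme that glutamylates beta tubulin, was highest at 53.9 and 45.1 TPM, Tpgs1, a subunit of the Ttll1 complex, had 46.7 and 45.9 TPM, and Ttll10 had 3 counts in each library. Of 6 genes of the carboxypeptidases that shorten glutamate chains, 5 reached 1 TPM, led by Agtpbp1 at 49.0 and 49.4 TPM and Agbl5 at 12.8 and 11.8 TPM, with Agbl1 at 0.08 and 0.09 TPM. None of these genes at a mean of 1 TPM or more was past the threshold, beside 8.84% of all protein-coding genes.

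Acetylation of alpha tubulin takes place inside the microtubule rather than on the tail. Atat1, the acetyltransferase, had 56.5 and 50.9 TPM. Of the deacetylases, Sirt2 had 107 and 110 TPM and Hdac6 had 42.4 and 35.4 TPM. The 8 genes of the gamma tubulin complex had a median of 20.1 TPM, with Mzt1 at 32.9 and 30.6 TPM, Tubgcp3 at 29.1 and 27.7 TPM and Nedd1 lowest at 1.41 and 1.23 TPM. Of 5 severing enzymes and subunits, 4 reached 1 TPM, with the katanin gene Katnal1 at 23.7 and 22.7 TPM and Fign at 1.04 and 0.52 TPM. None of these acetylation, gamma tubulin complex and severing genes at a mean of 1 TPM or more was past the threshold, beside the 8.84% of all protein-coding genes.

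Neighbouring and overlapping genes bear on some of the counts. In GENCODE M21, Tuba4a overlaps Stk16 on the opposite strand (6624 and 5524 counts), Tubb4b overlaps Fam166a on the opposite strand (6 and 6), and Tubb3 lies within the long model Gm20388 on the same strand (3566 and 2228). The sources used here do not say how strand entered the assignment of reads. A transcript now named Gm49450-201, which spans Tuba1a and Tuba1b, was quantified under Tuba1a with 25.3 and 59.7 of its counts. Of the pseudogenes named after tubulin genes, Tubb4b-ps1 had 46.9 and 11.1 counts and Tubb4b-ps2 had 1 and 3.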

How the data were processed

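Polyadenylated RNA of mouse frontal cortex was measured in 2 libraries of 1 group, grouped by the labels. Per the deposited text description, the authors quantified each library on mm10 with annotation release M4; neither the aligner nor the program is given in the sources used here. The deposited values used are expected counts, TPM (scaled by the authors over every entry, spike-ins among them), FPKM, each transcript's percent of the TPM of its gene, posterior SDs and the deposited interval bounds of TPM (a signal column with no stated level). Expected counts were rounded for scaling. Spike-ins took 3.50 and 3.47% of counts and all entries that are not annotated genes 4.07 and 4.00%; these stayed out of library sizes.

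Symbols and coordinates came from GENCODE M21 (42462 of 43346 identifiers matched). TMM factors (1.02 and 0.982) came from edgeR 4.0.16 in R 4.3.3; DESeq2 1.42.0 size factors, the library total, the spike-in total, a prior count of 0.5, a filter of 10 counts and TPM with a pseudocount of 1 were alternatives. The ratio calculation was tested on simulated data. The libraries were checked for being the same library deposited again, which their counts are not (chi-square per degree of freedom 52.7 over 20312 genes with 10 or more counts). With 2 libraries, SDs have 1 degree of freedom and the smallest p of an exact sign-flip test is 0.5, so no test was run; PCR reads are not independent molecules.

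The members and lists were chosen with earlier results of these data known. Named are all tubulin genes and, of each other list, the 2 highest and the lowest by mean TPM and those past the threshold on replicate ratios; sex-linked, overlapping and pseudogenes, and markers beyond this rule, were added once their values had been seen. Some sequences and genes that these rules would name are not reported here, but the genes stay in counts and sums. The last codon was read from GENCODE M21 coding sequences in place of the RefSeq proteins first planned. Sequence sharing was computed on M21, not on the M4 release of the quantification. Coding sequences were aligned with Biopython 1.88.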

Additional observations from a re-analysis of the deposited data

How the results depend on the processing

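Of the alternative values of the main results, 28 stayed within the spread between libraries or the tolerance of their count and 2 moved. For single genes and pairs, 130 stayed within the spread or on the same side of the threshold, 16 moved, and 2 reversed a pair called apart. Part of the values that stayed could not have moved, so these counts overstate stability. A level, share or pair ratio in 1 library lies within the SD of 2 libraries by construction. Pair ratios in FPKM repeat those in TPM. Values near 0 that were not called also changed sign: the replicate ratios of Tuba1a and Tubb2a under 3 of 6 settings each, Tuba1b under 2 and Tubb3 under 1, and the ratios of neighbours not called apart, Tubb4a over Tubb4b (-0.09 in replicate 1 alone), Tubb2b over Tubb5 (-0.03 in replicate 1 alone) and Tubb5 over Tuba4a (-0.06 in replicate 2 alone). Without division by length, log2 alpha over beta was -0.50 (main -0.31), Tubb3 over Tubb4a turned to -0.014 and Tubb4b over Tubb2b to -0.22. Under the same setting Tubb2b over Tubb5, not called apart at 0.02, became -0.45, Tubb5 over Tuba4a became 1.12 (main 0.24) and Tubb4a over Tubb4b 0.65 (main 0.10), so that Tubb5 followed Tuba1b in the order. Rescaling TPM to nuclear protein-coding genes gave 8313 in sum (main 4101), a factor of 1.98 and 2.08 that is common to all genes. With a single library, the sum ranged from 3991 to 4211, log2 alpha over beta from -0.33 to -0.29 and the tyrosine share from 87.2 to 90.1%; 7 neighbours were apart in each library alone, by the intervals only and in an order sorted anew, so the pairs differ between the libraries; and 9 genes kept 90% or more in their most used transcript. Tuba1c was the gene past the threshold under every scaling tried. The alternative size factors move all genes alike, by -0.002 to 0.05 (log2), which was too little to change this. Leaving out transcript Tuba4a-207 was chosen after seeing the data and gave a tyrosine share of 89.5%. No paired analysis was possible because there is 1 group. Depth limits mainly Tuba1c, with 514 and 273 counts.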

Other observations

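Transcript models annotated as retained introns were quantified in 3 of the tubulin genes, a pattern noticed after the values were seen. Their share of the gene's TPM was 14.5 and 6.43% in Tuba4a, 5.44 and 2.48% in Tubb5, and 2.99 and 1.00% in Tuba1b, higher in replicate 1 for each. The fragments behind them were 1344 and 662 in Tuba4a, 896 and 288 in Tubb5, and 480 and 132 in Tuba1b. Over 3361 protein-coding genes at 10 TPM or above on average, in which such models took 1% or more, 58.6% had the higher share in replicate 1, with a median of 12.8% in replicate 1 and 12.1% in replicate 2.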
